A study of Homo sapiens with 4 samples.

Results

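The genes described here encode the collagens, laminins and fibronectin of the extracellular matrix and the integrins that bind them. They were taken by symbol alone, as the genes of the count table named COL, LAM, ITGA or ITGB with a chain number or letter, and FN1, and the rule uses no measured value. The rule found 73 of 24014 genes: 36 collagens, 12 laminin chains, 16 integrin alpha chains, 8 integrin beta chains and fibronectin. Another 9 genes of these families (COL11A2, COL14A1, COL20A1, COL2A1, COL4A6, COL5A3, COL6A5, COL6A6 and ITGA8) were not analysed here.

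RNA was sequenced from SK-N-SH, a human neuroblastoma line whose cultures mix neuroblast-like (adrenergic) cells with flat, substrate-adherent (mesenchymal) cells. The control group was 2 libraries of wild type cells that received a lentiviral vector without an insert. The AP1AR-DT_OE group was 2 libraries of cells given a recombinant lentivirus that carries AP1AR-DT, a long non-coding RNA called AC109347.1 in the titles. The titles number the libraries 1 and 2 in each group, and nothing says that same-numbered libraries were made together or came from separate infections, so p-values measure only the spread between these libraries. The genotype and treatment entries of AP1AR-DT_OE library 2 give the RNA another version suffix than its title, and the title was followed. All cells thus had a lentivirus and were of 1 line, which makes them a model of a tumour cell culture and not of brain tissue. The comparison asks what a gain of this RNA, studied for its link to bipolar disorder, does to the transcripts of such cells.

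Collagens are trimers of alpha chains. Fibrillar collagens (types I, III, V) form the fibers of connective tissue, type IV forms the network of basement membranes, and type VI forms beaded filaments beside cells. Laminins are trimers of an alpha, a beta and a gamma chain that polymerize in basement membranes, and fibronectin is a dimeric glycoprotein that links cells to collagen. Integrins are pairs of an alpha and a beta chain that span the membrane, bind these ligands outside and connect to talin and actin inside. In neuroblastoma, abundant collagen, fibronectin and integrin transcripts are known as a trait of the mesenchymal cell state.

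The coding stretches below show how unlike these transcripts are in base composition, a property that moved with the difference between the libraries numbered 1 and 2 described further on. Each is 90 bases of coding sequence inside 1 exon, read from GRCh37 on the strand of the gene and chosen by rule as the window whose GC content is nearest to that of the whole transcript. G and C are in capitals. ITGAV and ITGB1, with 38.3% and 38.2% GC over the transcript, were higher in the libraries numbered 2, and the windows lie at chr2:187500809-187500898 on the plus strand (exon 7 of 30) and chr10:33221455-33221544 on the minus strand (exon 3 of 17). FN1 (49.9% GC; chr2:216298083-216298172, minus, exon 3 of 47), ITGA3 (60.9% GC; chr17:48141462-48141551, plus, exon 2 of 26) and COL6A2 (66.4% GC; chr21:47531391-47531480, plus, exon 2 of 28) were lower in them.
ITGAV: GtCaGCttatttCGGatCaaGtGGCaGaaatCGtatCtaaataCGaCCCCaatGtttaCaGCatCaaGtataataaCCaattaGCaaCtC
ITGB1: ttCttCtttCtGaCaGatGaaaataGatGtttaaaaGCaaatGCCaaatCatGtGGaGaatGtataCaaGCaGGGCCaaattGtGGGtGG
FN1: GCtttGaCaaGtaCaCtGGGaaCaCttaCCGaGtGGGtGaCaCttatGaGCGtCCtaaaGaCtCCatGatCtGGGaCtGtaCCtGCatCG
ITGA3: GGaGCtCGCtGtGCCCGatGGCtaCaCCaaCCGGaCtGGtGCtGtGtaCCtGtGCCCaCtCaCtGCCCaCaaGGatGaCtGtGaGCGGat
COL6A2: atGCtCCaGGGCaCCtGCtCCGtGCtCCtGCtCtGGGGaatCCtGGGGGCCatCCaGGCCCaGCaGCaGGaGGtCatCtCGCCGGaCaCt

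The libraries held between 21988065 and 26184599 counts. The transferred RNA was counted 3 and 18 times in controls 1 and 2, against 680 and 1065 times after transfer, a Log2FC of 6.63 (SE 0.64, DESeq2 Wald test, adjusted p = 3.637e-21), so the libraries matched their labels. Of 10 adrenergic markers, 9 were in the table and all 9 had a mean of at least 50 normalized counts, among them HAND2 and GATA3. All 12 mesenchymal markers reached that level too, led by VIM. No marker of either list passed the test between the groups, and their median Log2FC was 0.03 and -0.11. PRRX1, a mesenchymal transcription factor, was the marker with an unadjusted p under 0.05. It had 2770 and 11360 normalized counts in the controls against 1241 and 2246, both below both controls, with log2 ratios of -1.16 and -2.34 within the numbers (Log2FC -2.02, SE 0.61, adjusted p = 0.431 in DESeq2), and control 2 stood far above the other libraries. The blood and endothelial markers in the table (SPI1, CD14, VWF and TEK) summed to at most 23.1 normalized counts per library for each list. Of the epithelial markers, EPCAM had 0 to 14 counts and CLDN4 676 to 897. The part of the cell state in the values below was not tested.

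Levels are given first on the TPM scale, as counts per kilobase of transcript scaled to the same total in each library. The transcript was the longest protein-coding one where a gene had one, and no correction for GC content was made. SK-N-SH cells expressed a restricted set of these genes at high level. ITGA3, the alpha3 chain that pairs with beta1 into a laminin receptor, led with 982 and 559 TPM in controls 1 and 2 and 851 and 640 TPM in AP1AR-DT_OE libraries 1 and 2. COL6A2, a chain of the beaded filament collagen, had 667, 438, 604 and 498 TPM in the same order, and COL1A1, the main chain of type I collagen, had 596, 413, 622 and 464 TPM. In each of these genes the libraries numbered 1 lay above those numbered 2, in both groups. COL18A1, the basement membrane collagen whose end fragment is endostatin, followed at a mean of 393 TPM, then FN1 at 207, COL6A1 at 205, ITGB5 at 160, COL4A2 at 134, ITGA5 at 110 and COL8A1 at 99.3 TPM. Of the steps between neighbours in this order, only that from COL18A1 to FN1 had ranges over the 4 libraries that did not overlap. Within libraries, ITGA3 exceeded COL6A2 in 4 of 4, COL6A2 exceeded COL1A1 in 3 of 4, and FN1 exceeded COL6A1 in 2 of 4. The 10 leading genes held 76.7% to 82.2% of the summed TPM of all 73, whose counts were 1.09% to 1.37% of each library. Scaling by the merged exons of each gene in place of a transcript kept 7 of these 10, with COL3A1, LAMC1 and COL5A1 in place of COL4A2, ITGA5 and COL8A1.

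**Figure D1:**
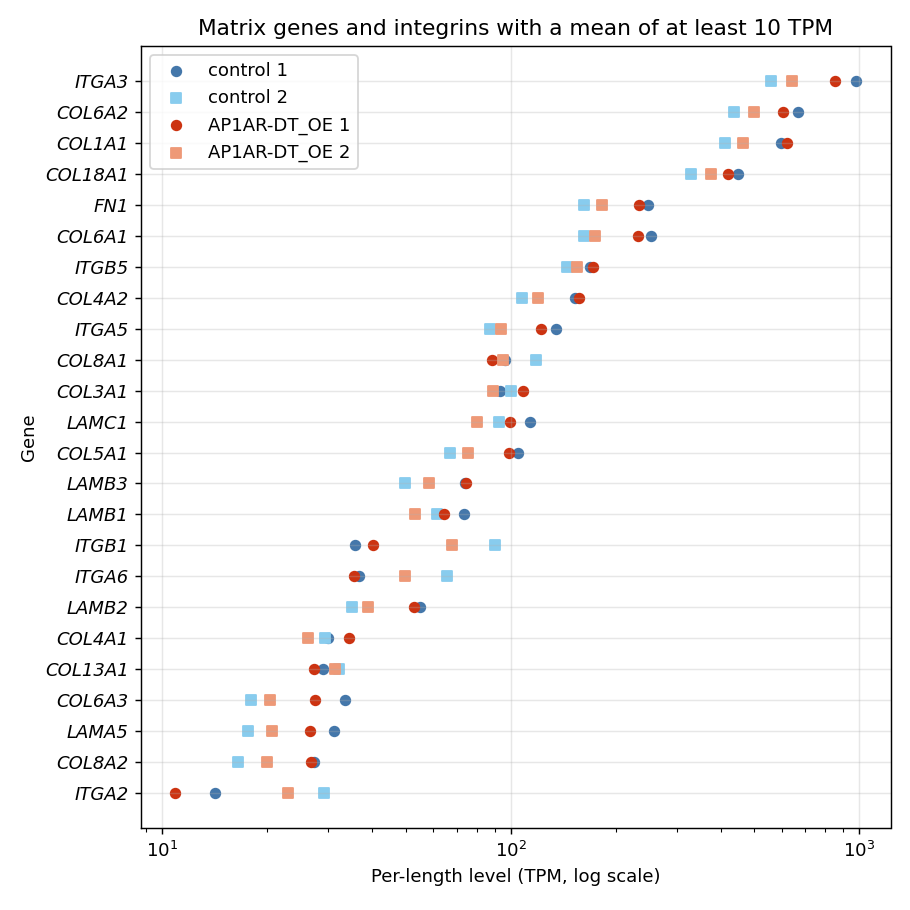
Per-length level in TPM (log axis) of the 24 genes with a mean of at least 10 TPM, 1 point per library, circles for libraries numbered 1 and squares for those numbered 2, controls in blue and AP1AR-DT_OE in red. ITGA3 leads at a mean of 758 TPM, and in most rows the points fall apart by replicate number and not by group.

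At the other end, 31 of the 73 genes had a mean under 1 TPM, and 18 never exceeded 12 counts, the limit that 3 read pairs allow. These 18 included 4 of the 5 leukocyte integrin alpha chains (ITGAL, ITGAM, ITGAX and ITGAD) with beta chain ITGB7. They also included the epithelial chains COL17A1 and ITGB6, the growth plate collagen COL10A1, and COL4A3 and COL4A5, which form the specialized type IV network of kidney and other epithelia. COL9A1, with 0 counts in both controls, 11 in AP1AR-DT_OE 1 and 8 in AP1AR-DT_OE 2, was among the 18, so no fold is given for it. These chains had too few counts to be measured at this depth, which is not evidence of their absence.

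Chains that assemble into 1 molecule were often far apart in transcript level, and the higher chain was the same in every library for the pairs of collagens and laminins given here. The ratios were not corrected for GC content, and its part in them was not tested. In each collagen pair below the higher chain was also the richer in GC, such as COL1A1 (61.5%) over COL1A2 (54.5%). Type I collagen is normally made of COL1A1 and COL1A2 chains. The TPM ratio of COL1A1 to COL1A2 was 192 in control 1, 173 in control 2, 126 in AP1AR-DT_OE 1 and 181 in AP1AR-DT_OE 2, with COL1A2 at 2.39 to 4.95 TPM. COL5A1 exceeded its partner COL5A2 by 56.1, 29.5, 34.4 and 29.0 times. COL3A1, a homotrimer of its own, had 89.2 to 108 TPM, so it lay between the abundant COL1A1 and the scarce COL1A2. Among the collagen VI chains, COL6A2 exceeded COL6A1 by 2.61 to 2.86 times and the larger COL6A3 by 20.0 to 24.4 times. COL4A2 exceeded COL4A1 by 5.10, 3.68, 4.56 and 4.56 times, or by 2.76 to 3.83 times when merged exon lengths were used.

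COL4A1 and COL4A2, the main chains of type IV collagen, are shown by their shared start region because they differ in level although transcribed from it in opposite directions. In the RefSeq table on GRCh38.p14 their start sites are 127 bases apart on chromosome 13, and their 300-base windows share 226 bases. The window of COL4A2, chr13:110307034-110307333 on the plus strand, runs from 250 bases before its start to 50 after it. Capitals mark CCAAT and GGGCGG, searched on both strands together with TATAAA, which was absent.
COL4A2: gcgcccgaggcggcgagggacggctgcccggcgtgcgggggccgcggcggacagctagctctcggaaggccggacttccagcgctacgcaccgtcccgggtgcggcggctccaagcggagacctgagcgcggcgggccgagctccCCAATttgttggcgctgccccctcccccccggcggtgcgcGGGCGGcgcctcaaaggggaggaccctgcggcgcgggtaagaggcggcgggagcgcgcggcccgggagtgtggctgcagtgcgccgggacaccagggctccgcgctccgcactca
These motifs do not overlap each other. CCAAT was found in 34.6% of all 35116 promoter windows of this length and in 16 of the 68 of these genes that the table holds, GGGCGG in 45% and 38 of 68, and TATAAA in 11.5% and 9 of 68. COL1A1 and COL1A2 have no entry in that table.

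Several of the genes are neighbours. Counting neighbours on a chromosome at most 100 kilobases apart by the GRCh38 positions of the count table, 11 pairs were found, and in 3 of them both genes had a mean of at least 10 TPM. These were COL4A1 with COL4A2, COL6A1 with COL6A2 (chromosome 21, 93061 bases apart) and ITGA3 with COL1A1 (chromosome 17, 93619 bases apart). COL3A1 and COL5A2, 19151 bases apart on chromosome 2, had means of 97.7 and 2.41 TPM, and LAMB1 and LAMB4, 20334 bases apart on chromosome 7, had 63.3 and 0.032 TPM.

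Among laminins, LAMC1, the gamma1 chain found in most laminins, had 80.2 to 114 TPM. The beta chains LAMB3, LAMB1 and LAMB2 had means of 64.1, 63.3 and 45.4 TPM. The alpha chains were lower: LAMA5 led with 17.6 to 31.0 TPM, LAMA2 had a mean of 1.55 TPM, and the 5 alpha chains together were at 0.213 to 0.296 of LAMC1. LAMB3 assembles with the alpha chain LAMA3, which had a mean of 0.33 TPM, and the ratio of LAMB3 to LAMA3 was 169 to 218. The beta chain was thus far above this alpha chain in all 4 libraries. LAMB3 had 58.9% GC and LAMA3 50.7%, while LAMA5, which lay below LAMC1, had 66.4% against 48.8%.

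The same unevenness appeared among integrins, but there the ratios moved with the replicate number. The alpha chains that pair with ITGB1 summed to 33.0, 8.47, 25.7 and 12.2 times the TPM of ITGB1 itself (control 1, control 2, AP1AR-DT_OE 1 and AP1AR-DT_OE 2). ITGA3 carried most of this sum, and without it the ratios were 5.62, 2.28, 4.59 and 2.77. ITGB5, which pairs with ITGAV into a vitronectin receptor, exceeded ITGAV by 31.8, 10.5, 30.6 and 15.4 times. ITGA6 exceeded ITGB4, its partner in hemidesmosomes, by 10.1, 24.7, 9.76 and 15.1 times. With merged exon lengths the ranges were 14.3 to 52.6 for the alpha chains over ITGB1 and 19.7 to 59.4 for ITGB5 over ITGAV. In each of these TPM ratios the libraries numbered 1 did not overlap those numbered 2, while the groups overlapped. GC content, for which the ratios were not corrected, was 60.9% in ITGA3 and 38.2% in ITGB1, and 54.6% in ITGB5 and 38.3% in ITGAV. For ITGA6 over ITGB4 the lower chain was the richer in GC, 42.5% against 63.6%.

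**Figure D2:**
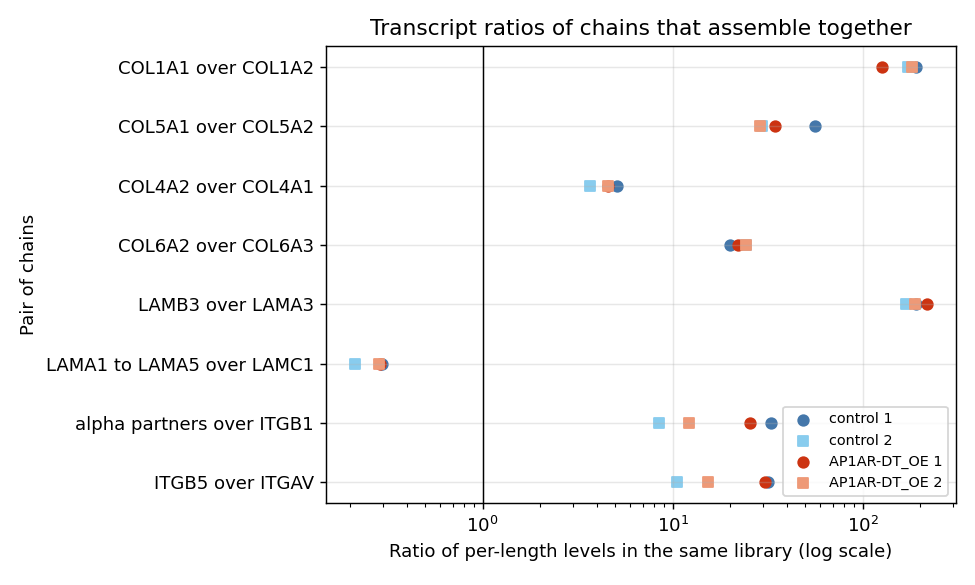
Ratio of per-length levels (log axis) of chains that assemble together, 1 point per library, circles for libraries numbered 1 and squares for those numbered 2, controls in blue and AP1AR-DT_OE in red; the vertical line marks equal levels. COL1A1 exceeds COL1A2 by 126 to 192 times, and the ratios with ITGB1 and ITGAV below them separate by replicate number.

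With AP1AR-DT_OE against control, none of the 73 genes passed the test. Every adjusted p was 1 in DESeq2, with 33 of 24014 genes called over the whole table (0.137%), and edgeR called none of the members. An unadjusted p under 0.05 was reached by 1 member in DESeq2, COL9A1 with its few counts, and by none in edgeR. Over the 44 genes with a mean of at least 50 normalized counts, which are those described singly, Log2FC ran from -0.54 (ITGB3) to 0.62 (ITGA11) with a median of 0.01, beside -0.02 over all genes of that level. The standard errors were 0.42 to 0.73, so in this fit intervals reach about as far as a doubling or halving even for the most abundant genes. In whole cultures, fewer cells of a type and less RNA per cell cannot be told apart.

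The most abundant genes showed this plainly, here in counts divided by DESeq2 size factors. ITGA3 had 69190 and 33080 in controls 1 and 2 against 59110 and 41450 in AP1AR-DT_OE 1 and 2, which lay between the controls. The means were 51140 ± 25530 and 50280 ± 12490 (SD, n = 2), and the Log2FC was -0.02 (95% interval -0.99 to 0.94). COL1A1 had 50840 and 29560 against 52300 and 36360, overlapping groups with a Log2FC of 0.14 (-0.78 to 1.06). FN1 had 31050 and 17080 against 28920 and 21120 and a Log2FC of 0.06 (-0.87 to 0.99). COL6A2 had 33140 and 18250 against 29570 and 22760 and a Log2FC of 0.03 (-0.90 to 0.95). In FN1 and COL6A2, as in ITGA3, the AP1AR-DT_OE libraries lay inside the range of the controls.

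Fibrillar collagens had a median Log2FC of 0.14 over the 7 genes of that level. COL5A2, a minor fibrillar chain, had 184 and 187 in the controls against 280 and 236, so its groups did not overlap (Log2FC 0.47, SE 0.53). COL1A2 had 227 and 147 against 356 and 173 (Log2FC 0.50, SE 0.59), overlapping groups. COL3A1 and COL5A1 had a Log2FC of 0.09 and 0.05, and COL27A1, a thin fibril collagen, one of -0.26. None of these differences exceeded its error.

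Type IV chains had a Log2FC of 0.12 (COL4A2) and 0.09 (COL4A1), and the type VI chains COL6A2, COL6A1 and COL6A3 had values of 0.03, 0.00 and -0.08. COL8A1, a short-chain collagen of vessel walls and corneal basement membrane, was the member of non-overlapping groups with the lower AP1AR-DT_OE level: 7916 and 8135 against 7164 and 7170, a Log2FC of -0.16 (SE 0.42). Its relative COL8A2 had 0.12, and COL7A1, the anchoring fibril collagen, -0.25. COL9A2, a fibril-associated collagen of cartilage, had 59.2 and 51.7 against 82.3 and 62.5 (Log2FC 0.39, SE 0.73). COL18A1 and COL15A1, related collagens of basement membrane zones, had a Log2FC of 0.07 and 0.35, transmembrane COL13A1 one of -0.01 and fibril-associated COL16A1 one of 0.00.

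The 6 laminin chains of that level had a median Log2FC of -0.05. LAMC1 had 13010 and 8862 against 11220 and 8431, with a Log2FC of -0.16 (SE 0.45), and LAMB1 had 5995 and 4212 against 5183 and 3987, with -0.15 (SE 0.45). Both chains overlapped between the groups although the ratio within each number was below 0 on the log2 scale, -0.21 and -0.07 for LAMC1. LAMB3, LAMB2, LAMA5 and LAMA2 had values of 0.13, 0.06, -0.02 and -0.08.

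Integrins held both ends of the range. ITGB3, which pairs with alphaV into a receptor for vitronectin and fibronectin, had 894 and 535 in the controls against 562 and 421, a Log2FC of -0.54 (95% interval -1.52 to 0.44). Control 2 lay below AP1AR-DT_OE 1, so the groups overlapped, while the log2 ratios within numbers 1 and 2 were -0.67 and -0.35. ITGA11, a receptor for fibrillar collagen, had 265 and 161 against 382 and 271, a Log2FC of 0.62 (-0.45 to 1.68), with log2 ratios of 0.52 and 0.75. Its groups did not overlap, and its p before adjustment was the smallest of the 44 genes (0.258). ITGA2, another collagen-binding chain, had a Log2FC of -0.28, ITGA10 one of -0.02 and ITGAE, which pairs with beta7 on lymphocytes, one of 0.43. ITGA4 and ITGA9, chains that bind fibronectin splice forms and tenascin, had -0.26 and 0.08 on means of 82.6 and 132 normalized counts. ITGB1, ITGAV, ITGA6, ITGA5 and ITGB5 had -0.13, -0.19, -0.19, -0.01 and 0.10.

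The AP1AR-DT_OE libraries both lay above or both below the controls in 4 of the 44 genes (9.09%: COL5A2, COL9A2 and ITGA11 above, COL8A1 below), against 9.45% of all genes of that level. With 2 libraries against 2, an exact two-sided permutation test cannot go below p = 0.333. The log2 ratio of AP1AR-DT_OE to control had the same sign within both numbers in 17 of the 44 (38.6%), beside 38.3% of all genes. In 21 of the 44 genes the ratio was below 0 within number 1 and above 0 within number 2, and the opposite held in 6. The medians were -0.09 and 0.23, beside -0.02 and 0.02 over all genes. Of the 16 genes with at least 60% GC, 12 showed the lower-then-higher pattern. The shares of all genes, and of all genes of that GC content, with this pattern are not given here. It is thus not shown to be particular to these families.

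**Figure D3:**
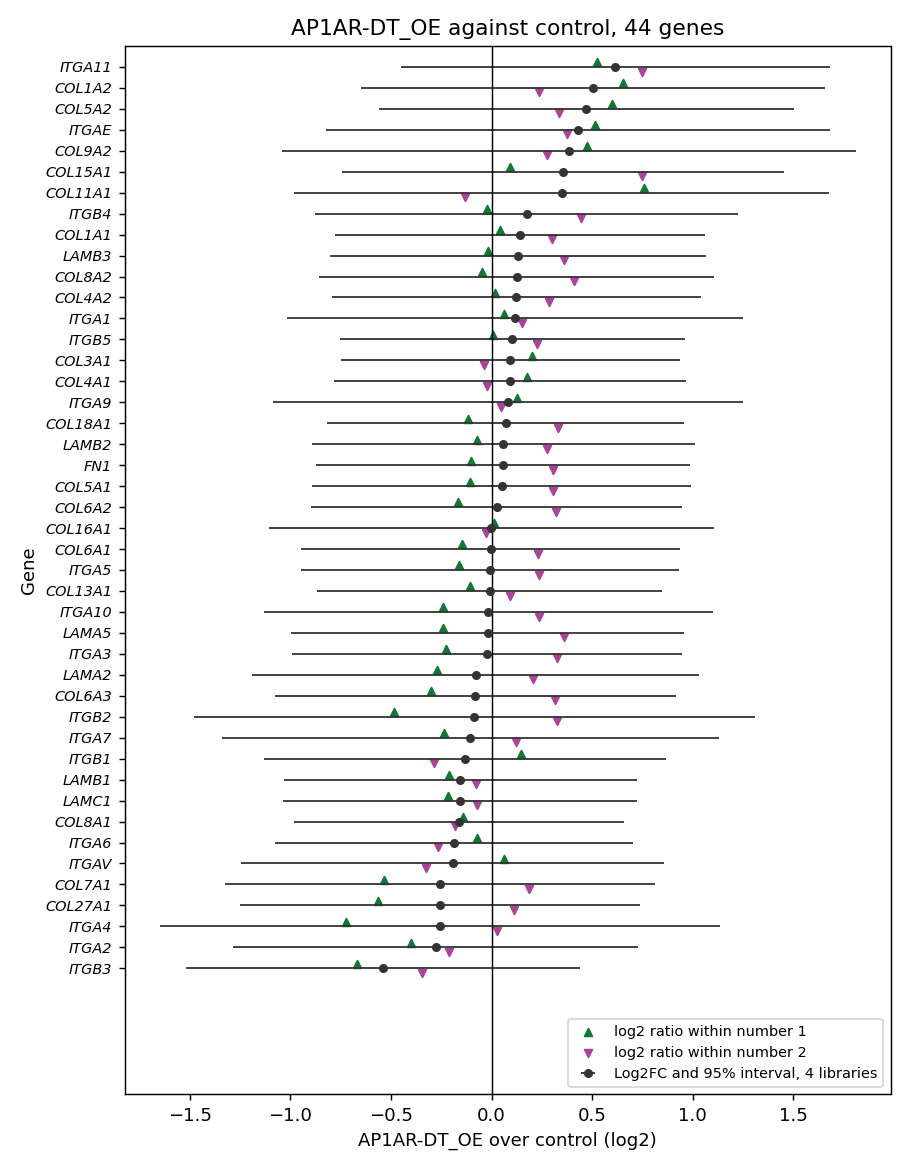
AP1AR-DT_OE over control on the log2 scale for the 44 genes with a mean of at least 50 normalized counts: black points with lines are Log2FC and its 95% interval from DESeq2 over 4 libraries, and triangles are the log2 ratios within libraries numbered 1 (green) and 2 (purple). Every interval crosses 0, and for most genes the green and purple ratios lie on opposite sides of 0.

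The libraries of a group differed from each other far more. With the group held as a term, 17 of the 73 genes (23.3%) differed between the libraries numbered 2 and 1, where 14.9% of all 24014 genes did. This fit rests on 1 residual degree of freedom. DESeq2 sets aside genes of low mean count before adjustment, so only 44 of the 73 had an adjusted p here, and the others count as not called. Lower in number 2 were 14 of the genes (19.2%; 7.43% of all genes), and higher were 3 (4.11%; 7.51% of all genes). In all 17 the libraries of number 1 and number 2 did not overlap. The 17 were picked by this same comparison, so this adds no support to the calls. The share over all genes is not given here. The split of calls over all genes depended on the method: 50.3% of them were higher in number 2 here, 59.0% with TMM factors and 74.8% in edgeR.

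The 14 that were lower included the fibrillar chains COL1A1 and COL5A1, type IV chain COL4A2, the type VI chains COL6A1, COL6A2 and COL6A3, and COL8A2, with laminin chains LAMA5, LAMB2, LAMB3 and LAMC1, fibronectin, and the integrins ITGA3 and ITGA5. COL6A3 fell furthest, from 5071 and 4113 normalized counts in the libraries numbered 1 to 2290 and 2850 in those numbered 2, a Log2FC of -0.84 (SE 0.23, DESeq2 Wald test, adjusted p = 0.003274). ITGA3 followed with a Log2FC of -0.79 (SE 0.20, adjusted p = 0.001978), and LAMC1 had the smallest change, -0.48 (SE 0.19, adjusted p = 0.04461). LAMC1 was not called with TMM factors or in edgeR, and COL4A2, COL6A2, COL8A2 and LAMB3 were not called in edgeR. ITGA6 (Log2FC 0.56) was called in addition with TMM factors and ITGA1 (0.84) in edgeR, both higher in number 2, and 14 genes were called with counts divided by 4. The 3 that were higher were integrin chains. ITGB1, the common beta chain, had 2485 and 2751 normalized counts in the libraries numbered 1 and 5261 and 4320 in those numbered 2, a Log2FC of 0.87 (SE 0.22, DESeq2 Wald test, adjusted p = 0.001277). ITGAV had 540 and 564 against 1172 and 934 (Log2FC 0.92), and ITGA2 had 1607 and 1216 against 2769 and 2392 (Log2FC 0.88). Of the alpha chains that pair with ITGB1, ITGA3 and ITGA5 were thus lower and ITGAV and ITGA2 higher in number 2 before the GC correction below.

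GC content moved with these values. The 20 collagens of that level had a median of 60.8% GC, the 6 laminins 54.1% and the 17 integrins 49.7%, beside 49.4% over all genes, and their median Log2FC between the numbers was -0.61, -0.61 and -0.08, beside -0.05. All 16 genes with at least 60% GC had a value below 0 and all 6 under 45% GC one above 0. Of the sequences shown above, ITGA3 and COL6A2 are examples of the first set and ITGAV and ITGB1 of the second. FN1, at 49.9% GC, is in neither. Genes of that level over the whole table went the same way, with an upper quartile of -0.39 from 60% to 65% GC and above 65%. Their lower quartile was 0.73 under 40% GC and 0.35 from 40% to 45%. Across the 44 genes, which share the same 4 libraries, Spearman's rho of the log2 ratio of number 2 to number 1 with GC was -0.64 in the controls and -0.44 in the AP1AR-DT_OE libraries. Over all genes it was -0.78 and -0.66. Between 45% and 50% GC, 8 of the 10 genes had a Log2FC below 0 and 7 lay under the lower quartile of -0.20 of all genes of that class, whose median was 0.15. Among them were FN1 (-0.66), ITGA11 (-0.61), LAMA2 (-0.58), ITGB3 (-0.58), LAMC1 (-0.48) and LAMB1 (-0.44). The median over all genes fell to -0.30 in the class from 50% to 55% GC. FN1, ITGB3, ITGA11 and LAMB1 lay close to that class, at 49.4% to 49.9% GC, so the class median overstates their distance from other genes. ITGA11, LAMA2 and ITGB3 were not called with the GC correction below (adjusted p of 0.43, 0.26 and 0.24 in DESeq2).

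After a trend on GC was removed in each library, 4 of the 73 genes (5.48%) differed between the numbers, a share near that of all genes (5.14%). These were FN1 (Log2FC -0.57, adjusted p = 0.000278 in DESeq2), LAMC1 (-0.49, adjusted p = 0.000831), COL6A3 (-0.52, adjusted p = 0.0155) and LAMB1 (-0.40, adjusted p = 0.0257), all lower in number 2, and the first 3 of them had been called without the correction. With this correction ITGA3, COL1A1 and COL6A2 had values of -0.25, -0.11 and -0.06, and ITGAV, ITGB1 and ITGA2 had -0.07, -0.14 and -0.01 with adjusted p of 0.92, 0.65 and 0.99 in DESeq2, so their differences no longer stood out. When GC was taken from the longest transcript of any type, COL1A2 (Log2FC -1.57) replaced LAMB1 among the 4. FN1, whose GC content is 42.2% by that transcript, then had a Log2FC of -1.34, so the size of its difference depends on the transcript chosen, while LAMC1 and COL6A3 had -0.45 and -0.51. Of the calls over all genes, 41.5% were higher in number 2 with GC from protein-coding transcripts where a gene had one.

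**Figure D4:**
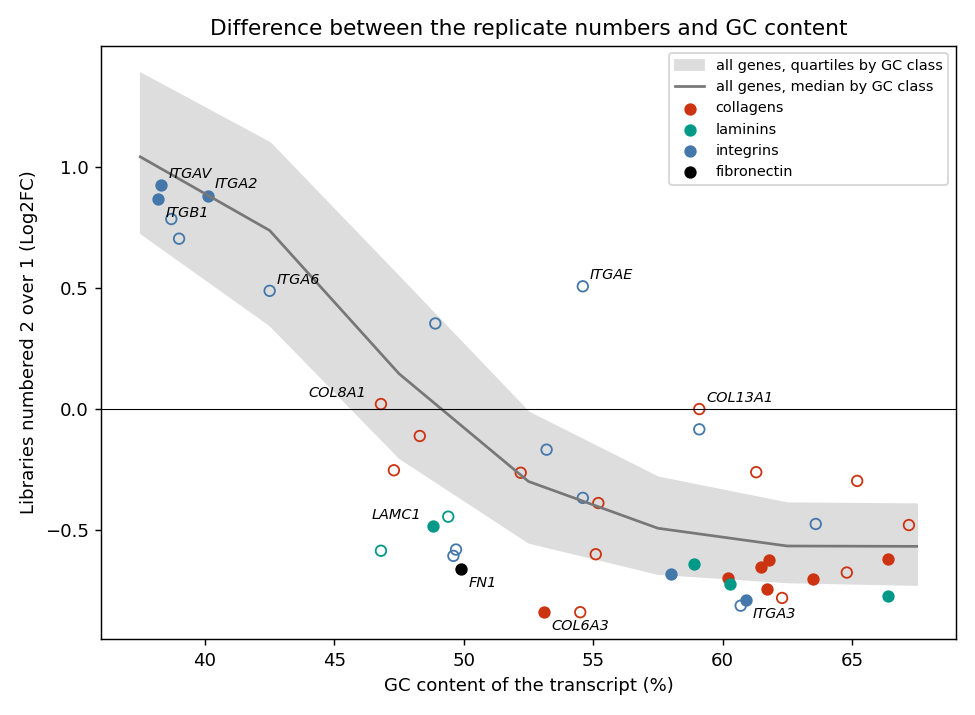
Log2FC of libraries numbered 2 over 1 against the GC content of the transcript for the 44 genes, filled where called at adjusted p under 0.05 in DESeq2; the grey line and band are the median and quartiles of all genes in classes of GC content, drawn at class midpoints. ITGAV, ITGB1 and ITGA2 sit with the all-gene median at the left, and FN1, LAMC1 and COL6A3 sit below the band in the middle.

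Genes that build, cross-link and sense the matrix were read from the same fits. None of 27 genes of collagen synthesis, 19 other matrix glycoproteins, 12 proteases and inhibitors, 9 other matrix receptors and 21 proteins of the integrin adhesion complex was called between the groups, with a median Log2FC of 0.01, -0.07, -0.01, -0.05 and 0.01 per list. Between the numbers, in the same order, 10, 8, 4, 4 and 9 genes were lower in number 2 and 1, 2, 1, 1 and 1 were higher. Over the 88 genes these are 39.8% lower and 6.82% higher, beside 7.43% and 7.51% of all genes. A mean of at least 50 normalized counts was reached by 23, 16, 11, 9 and 19 genes of the lists. Over the whole table, 13298 of 24014 genes reached it. Genes of low count are set aside and count as not called, so the shares here and below compare sets of unlike level. Shares among genes of that level are not given here. With GC correction, 25 were lower and 2 higher, 17 of the 27 having been called without it, beside 5.14% of all genes called in either direction. Lower without the correction were, among others, the cross-linking enzymes LOXL1 (Log2FC -0.82) and LOXL2 (-0.71) and tenascin C (TNC, -0.87). The basement membrane linker NID1 (-0.84) and talin 1 (TLN1, -0.76), which activates integrins, were too. Those higher without the correction were P4HA1, a prolyl hydroxylase of collagen (1.10), the matrix proteins POSTN (1.53) and LUM (1.73), the collagenase MMP1 (1.62), syndecan SDC2 (1.05) and FERMT2, the integrin activator kindlin-2 (1.09), all with 34.9% to 43.3% GC. Of the genes named here, TNC (-0.59), NID1 (-0.63) and POSTN (0.57) were also called with GC correction.

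It is not given in the sources used here whether strand was used in counting. Of the 73 genes, 20 share exon bases with a gene on the opposite strand. Among them are COL1A1, COL18A1, LAMB1, ITGA5, ITGAV, ITGB1 and ITGAE, the last with GSG2. ITGA1 shares exon bases with PELO on the same strand, so its counts are uncertain.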

How the data were processed

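Gene counts of 4 SK-N-SH libraries (2 control, 2 AP1AR-DT_OE) were used. The authors deposited them as whole-number counts per gene without normalization. Per the paper's methods, reads were aligned with HISAT2 to hg19 and counts came from StringTie. The submitters' processing notes name TopHat2 2.0.4, HTSeq and Cuffdiff instead, and the annotation is not given in the sources used here. Low counts piled up at 4 (3287 entries) and 8 (1342 entries), so 4 counts were taken as 1 read pair and 12 counts as the limit that 3 pairs allow. This covers counting error only. The fold changes and p-values of the authors' own DESeq2 and edgeR tests in the table were not used. Gene positions in the table are GRCh38.

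Counts of 24014 genes were fitted with DESeq2 1.42.0 in R 4.3.3 (Wald test, median-of-ratios factors, two-sided), with the group alone and with group and replicate number. P-values were adjusted by Benjamini-Hochberg over the genes kept by DESeq2's independent filtering on mean count, and calls needed an adjusted p under 0.05. An adjusted p was given to all 73 genes between the groups and to 44 of them between the numbers. Transcript length and GC came from GENCODE 44 lifted to GRCh37 (23954 genes matched). The longest protein-coding transcript was used for the 14810 genes that have one, and the longest of any type for the others. The longest transcript of any type, tried as an alternative, was not protein-coding for 13 of the 73 genes. GC correction removed a lowess trend (span 0.3) of log2 counts on GC in each library, fitted on genes with a mean of at least 50. The fits were checked on simulated data. Some results are not reported here. Other settings were edgeR 4.0.16, TMM factors, a filter of 10 counts in 2 libraries, no independent filtering, a likelihood-ratio test, counts divided by 4, the replicate block and each library left out.

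Named genes were those called in either comparison, up to 2 with the highest TPM per role, the 5 highest and 5 lowest Log2FC, and those of non-overlapping groups, the last 3 at a mean of at least 50. Others were named after their values were seen, as examples: genes under the limit, neighbours, chain partners and pathway genes. The choice of these gene families, fixed by symbol, and of the lists and tests was made with earlier results of these data known. Promoter windows were RefSeq's (68 of 73 genes matched).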

Additional observations from a re-analysis of the deposited data

How the results depend on the processing

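None of the 73 genes was called between the groups under any alternative run. Genes called over the whole table numbered 33 as reported, 0 in edgeR (where 112 had p under 0.05 before adjustment), 15 with counts divided by 4, 55 with GC correction (also 55 with GC from the longest transcript of any type), and 45 to 90 with 1 library left out. In detail, 90 were called without control 1, 75 without control 2, 45 without AP1AR-DT_OE 1 and 50 without AP1AR-DT_OE 2, the lone library being assumed to vary like the other group. The median Log2FC of the members went from -0.19 to 0.35 over these, and 14, 16, 19 and 10 of 39 named genes changed sign in that order. With the replicate block 37 genes were called, 16 of them shared with the 33, and with GC correction and replicate block 61. The deviations of same-numbered libraries from the group means correlated at 0.376 over 16730 genes, but 2 pairs cannot show a pairing. The block moved the median standard error of the members from 0.50 to 0.24, and to 0.18 with GC correction. Between the numbers, 3589 genes became 1235 with GC correction, 1239 with GC from the longest transcript of any type and 1634 with counts divided by 4, and the members called went from 17 to 4 with either GC correction. With GC correction ITGAV, ITGB1 and ITGA2 were no longer called and lay just below 0 (Log2FC -0.074, -0.14 and -0.0057, adjusted p 0.65 to 0.99 in DESeq2). With the longest transcript of any type they had -0.29, -0.057 and 0.019, none called. The cause was not tested. The median level of the members was 1.94 TPM, 2.03 with the longest transcript of any type and 1.43 with merged exons. The divided counts between the numbers, and both settings using the longest transcript of any type, were chosen after seeing the data. No library could be left out of the comparison of the numbers, since no residual degrees of freedom would remain.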
